A study of Mus musculus with 8 samples.

Results

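The 10 genes described here belong to the NRF2 antioxidant pathway and the defence against ferroptosis: Nfe2l2, Keap1, Nqo1, Gclm, Gclc, Slc7a11, Txnrd1, Gpx4, Prdx1 and Srxn1. They were taken by gene symbol, with glutathione transferases left out, and each matched 1 of the 56691 genes measured. RNA came from sorted mouse Kupffer cells, which are macrophages resident in liver sinusoids. The 8 bulk libraries were 4 from Vsig4-/- mice (KO 1 to 4) and 4 from wild-type mice (WT 1 to 4). Vsig4 encodes a complement receptor of tissue macrophages. All mice had been injected with B16F10 cells, a mouse melanoma line, a week before the sort and carried melanoma metastases in the liver, so neither genotype is a tumour-free control. Living CD45+ Tim-4+ cells were sorted, so the cells are those that still carried Tim-4. Age, sex and strain of the mice are not stated. Whether each library stands for its own mouse is not stated either, so the p-values rest on a spread between libraries that may be technical.

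NRF2, the product of Nfe2l2, is a transcription factor that the adaptor KEAP1 hands over for degradation. Oxidants and electrophiles modify KEAP1, and NRF2 then pairs with small MAF proteins at antioxidant response elements and raises genes for glutathione synthesis, thiol reduction and quinone detoxification. Ferroptosis is a form of cell death driven by iron and the peroxidation of membrane lipids, and glutathione-dependent GPX4 is its main brake. Kupffer cells take up dying red cells and so handle much iron and heme.

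The core of the antioxidant response element, the letters TGACNNNGC, was looked up on both strands of promoter windows from 250 bases before to 50 bases after each start site (RefSeq, GRCm38.p6). Windows were found for 9 of the 10 genes; Gclc had no entry. The core lay in a window of 5 of these 9 genes, or 55.6%, and in 14% of the 27025 genes with a window. It was found in Nfe2l2, Gclm, Txnrd1, Prdx1 and Srxn1, in the last of them after the start site, and not in the windows of Keap1, Nqo1, Slc7a11 and Gpx4. These genes were picked as NRF2, KEAP1 and antioxidant targets, and a match describes letters and not a binding site. Bases outside the windows were not searched, so a gene without a match may have an element elsewhere. All 4 matches before a start site are shown, whatever the level or fold change of the gene. Capitals mark the core, and each run is on the strand of the gene, 5′ to 3′.
Nfe2l2, chr2:75704870-75704913, minus strand: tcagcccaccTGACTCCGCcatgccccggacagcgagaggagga
Gclm, chr3:122245397-122245456, plus strand: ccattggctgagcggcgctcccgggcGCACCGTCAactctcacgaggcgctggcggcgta
Txnrd1, chr10:82859088-82859147, plus strand: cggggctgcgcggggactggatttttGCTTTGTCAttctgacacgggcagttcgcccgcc
Prdx1, chr4:116685440-116685499, plus strand: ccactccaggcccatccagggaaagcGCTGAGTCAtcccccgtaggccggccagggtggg
The core starts 240 bases before the start site in Nfe2l2, 134 in Gclm, 92 in Txnrd1, at the second of its 3 start sites, and 133 in Prdx1. In Gclm, Txnrd1 and Prdx1 it is read on the opposite strand of the gene. None of the printed bases lies in an annotated exon of its gene in GENCODE M21.

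Total counts ran from 16994406 to 19513844 in KO and from 15264043 to 19445494 in WT libraries. Vsig4 had 2 to 9 counts in KO and 22498 to 46735 in WT libraries. Of the 15 Kupffer cell markers, all were detected in every library, and their sum was 8088 to 24980 CPM (counts scaled to library size by TMM) in KO and 20470 to 36510 CPM in WT. All 10 melanoma markers were detected in every library as well, and their sum was 2391 to 12170 CPM in KO and 408 to 5400 CPM in WT. WT 1 and WT 2 stood apart with the least melanoma RNA and KO 3 with the most. The 12 hepatocyte markers summed to 199 to 833 CPM in KO and 467 to 2109 CPM in WT, with WT 3 highest, and the 8 stellate cell markers to 38.0 to 54.5 CPM in KO and 78.4 to 195 CPM in WT, without overlap. In such bulk samples, fewer cells of a type and less RNA per cell cannot be told apart. The melanoma content that differed between libraries is therefore given beside the results below.

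The 10 genes spanned a wide range of levels on the length-scaled FPKM scale. Prdx1, a peroxide-reducing peroxiredoxin, was highest with a mean over the 8 libraries of 318 FPKM, 5.07 times the level of Nfe2l2. Nfe2l2 (62.8 ± 18.3 FPKM, SD over the 8 libraries), Gpx4 (58.4 ± 8.30 FPKM) and Txnrd1 (45.8 ± 8.94 FPKM) came next. Nfe2l2 and Gpx4 did not differ beyond their spread, as each was the higher in 4 of 8 libraries. The order of Gpx4 and Txnrd1 held in 6 of 8 libraries. Gclc followed at 17.4 ± 1.62 FPKM and was above Gclm in 8 of 8 libraries. Gclm (11.3 ± 2.23 FPKM), Srxn1 (10.7 ± 1.69 FPKM) and Keap1 (10.3 ± 0.857 FPKM) were not separated from each other by their spread. Nqo1 (0.608 ± 0.350 FPKM) and Slc7a11 (0.533 ± 0.221 FPKM) were lowest, and their order was not separated either. Keap1 was 16.9 times the level of Nqo1.

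No member of the pathway passed the test in the comparison of KO with WT, which asks what loss of Vsig4 does to Kupffer cells in a tumour-bearing liver. Values in KO were lower for 6 of the 10 genes and higher for 4; the median log2 fold change was -0.098, beside -0.0028 over all 15870 tested genes. In edgeR's quasi-likelihood test 0 of 10 passed the adjusted threshold of 0.05, where 0.0063% of tested genes passed. Gclm, lower in KO, was the one gene of the 10 below an unadjusted p of 0.05, where 8.78% of tested genes were, 4.56% lower and 4.23% higher in KO. DESeq2 called 0 of 10, where it called 0.442% of genes, 0.201% higher and 0.241% lower in KO, and limma on log2(FPKM + 1) also called 0 of 10, where it called 0.0063% of genes. With the replicate number as a block, Gclm fell and the other 9 did not pass, where 14% of genes passed, 5.01% lower and 8.98% higher in KO. That block rests on a pairing that the labels do not state (it was inferred from the libraries' own values).

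**Figure D1:**
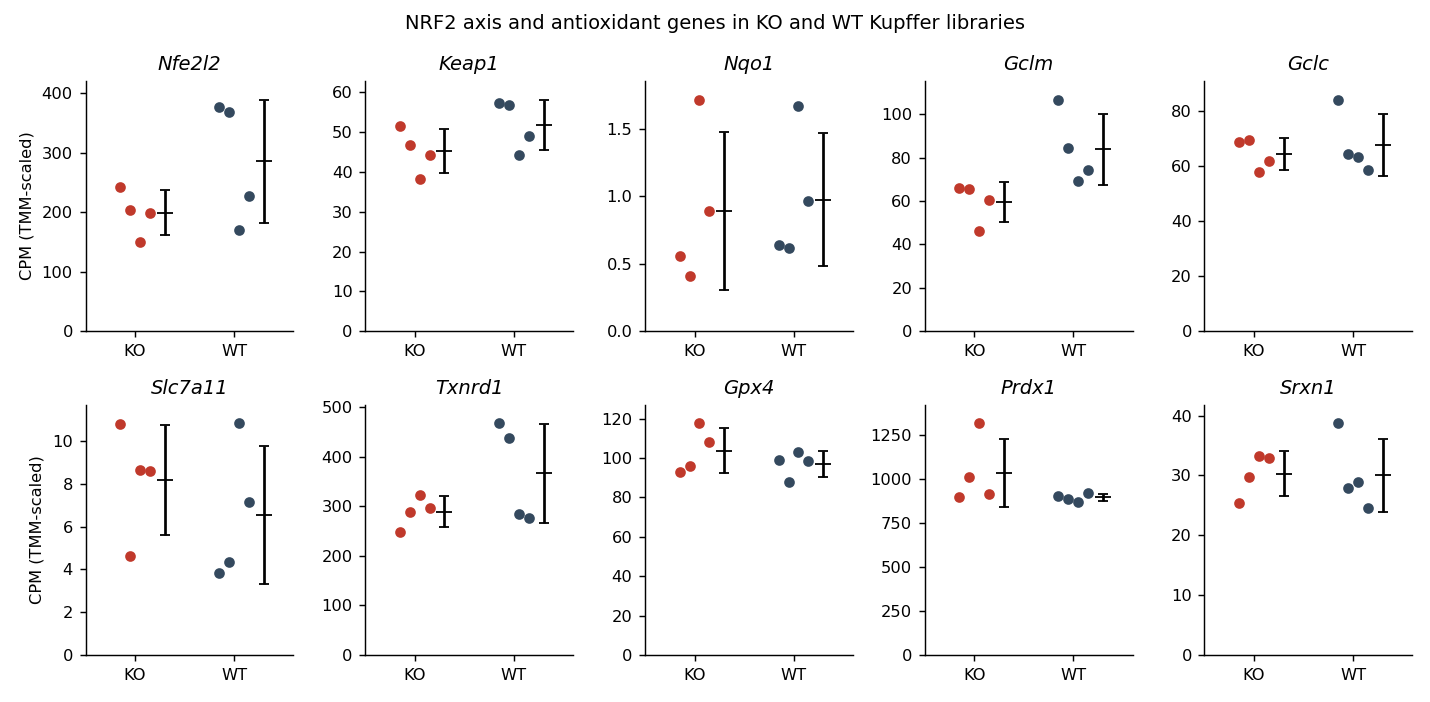
Level of each of the 10 genes in CPM, with 4 KO libraries left and 4 WT libraries right in each panel, library 1 to 4 from left to right, and mean ± SD beside the points. The Gclm points do not overlap, with KO at 46.3 to 66.1 CPM and WT at 69.4 to 107 CPM, while the points of the other 9 genes overlap.

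Gclm encodes the modifier subunit of glutamate-cysteine ligase, the enzyme that limits the rate of glutathione synthesis. Gene positions here and below are as deposited. The submitters' processing notes name mm10, which is the assembly GRCm38. The deposited positions nevertheless do not match the coordinates of the GRCm38.p6 promoter windows above. The build they follow is not known, and they cannot be combined with the windows. Gclm (ENSMUSG00000028124, chromosome 3, 122039206 to 122064381, plus strand) had 66.1, 65.7, 46.3 and 60.6 CPM in KO 1 to 4 and 107, 84.5, 69.4 and 74.5 CPM in WT 1 to 4. All 4 KO libraries were below all 4 WT libraries, KO 1 being closest to WT 3. The genotypes did not overlap in 5.56% of tested genes, with 2.85% lower and 2.71% higher in KO. The means were 59.7 ± 9.25 CPM in KO and 83.8 ± 16.5 CPM in WT (SD, n = 4 each). The log2 fold change was -0.49 ± 0.168 (SE), with a 95% interval of -0.87 to -0.11, and did not pass (edgeR adjusted p = 0.492). With the block it was -0.48 ± 0.0968 and passed (edgeR adjusted p = 0.0273). The blocked adjusted p was 0.0770, 0.0826, 0.0847 and 0.0253 without the libraries numbered 1, 2, 3 and 4, so the call was lost whenever number 1, 2 or 3 was left out. With the melanoma marker level as a covariate the log2 fold change was -0.26 ± 0.123 (edgeR adjusted p = 0.738). In the fit that left out WT 1, WT 2 and KO 3 it was -0.16 (edgeR adjusted p = 0.937). Gclm was lowest in the library with the most melanoma RNA in each genotype, KO 3 and WT 3. KO 1 and KO 2 had less melanoma RNA than WT 3 and WT 4 and also less Gclm, by a narrow margin against WT 3. The part of melanoma RNA in the Gclm difference was not tested. The antisense gene Gm17494, which overlaps Gclm, had 16 to 45 counts against 837 to 1505 for Gclm, and the strand setting of the counts is not stated.

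Gclc, the catalytic subunit of the same ligase, overlapped between the genotypes. Gclc (chromosome 9, 77661817 to 77701767, plus strand) had 68.5, 69.5, 57.5 and 61.6 CPM in KO and 84.0, 64.2, 63.0 and 58.6 CPM in WT libraries 1 to 4. WT 1 was the highest library and the other 7 intermixed. Its log2 fold change was -0.069 ± 0.132, with a 95% interval of -0.37 to 0.23 (edgeR adjusted p = 0.783), and it was above 0 under library-size scaling alone, at 0.023. The ratio of the subunits needs no scaling between libraries. The length-scaled ratio of Gclm to Gclc was 0.577, 0.566, 0.482 and 0.588 in KO 1 to 4 and 0.761, 0.788, 0.660 and 0.762 in WT 1 to 4. The genotypes did not overlap in this ratio, which averaged 0.553 ± 0.0486 in KO and 0.743 ± 0.0567 in WT (mean log2 difference -0.43). Of the 45 ratios between the 10 genes, 4 did not overlap, or 8.89%. Gclm was in 3 of these 4, and in 9 of the 45 ratios. The share among ratios of other tested genes was not computed, so 8.89% is not read as unusual. The ratios with Gclm share its values, which did not overlap on their own, so they are not separate results. The ratio of Gclm to Gclc was lowest in the library with the most melanoma RNA in each genotype, KO 3 and WT 3, and the part of melanoma RNA in its difference was not tested. Each of the 4 ratios had an exact 2-sided permutation p of 0.0286, the smallest that 4 against 4 libraries allow, and an adjusted p of 0.321 over the 45. The ratios were chosen after their values were seen.

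**Figure D2:**
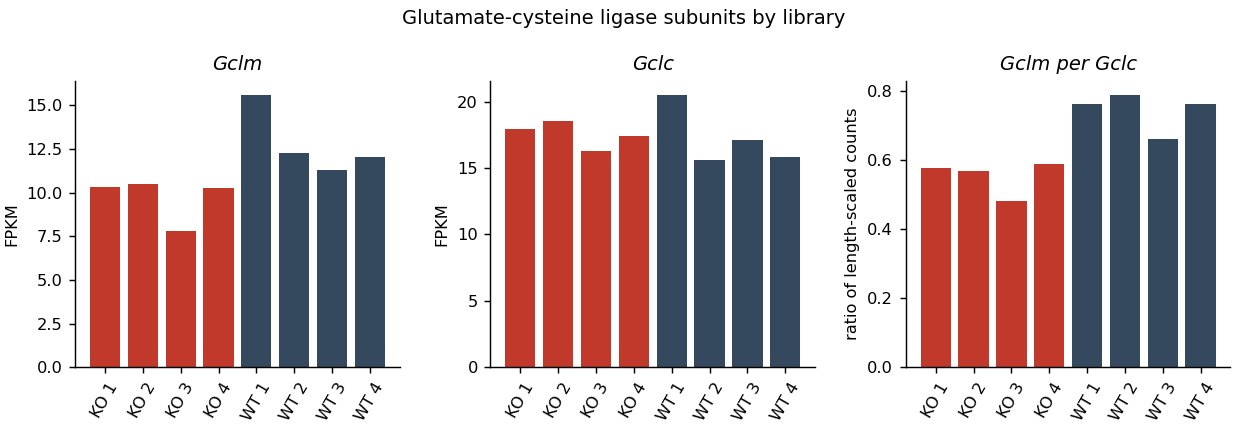
Glutamate-cysteine ligase subunits in the 4 KO libraries (left, red) and 4 WT libraries (right, dark blue): FPKM of the modifier Gclm, FPKM of the catalytic Gclc and their length-scaled ratio, each bar 1 library. The ratio is 0.482 to 0.588 in KO and 0.660 to 0.788 in WT, while Gclc overlaps between genotypes.

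Nfe2l2 itself (chromosome 2, 75505857 to 75534985, minus strand) had 242, 204, 150 and 199 CPM in KO 1 to 4 and 377, 369, 170 and 227 CPM in WT 1 to 4. WT 1 and WT 2 were well above the other 6 libraries, which intermixed. Each KO library was below the WT library of its number, in 4 of 4. The means were 199 ± 37.6 CPM in KO and 286 ± 104 CPM in WT (SD, n = 4 each). KO and WT differed by a log2 fold change of -0.52 ± 0.273, with a 95% interval of -1.15 to 0.10 (edgeR adjusted p = 0.492). With the block it was -0.47 ± 0.137 (edgeR adjusted p = 0.0589). WT 1 and WT 2 are the libraries with the least melanoma RNA. With the melanoma covariate the value was -0.016 ± 0.129, and leaving out WT 1, WT 2 and KO 3 together gave 0.12 (edgeR adjusted p = 0.992 and 0.958).

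Keap1, which marks NRF2 for degradation, varied less. Keap1 (chromosome 9, 21141026 to 21150657, minus strand) had 51.5, 46.9, 38.2 and 44.1 CPM in KO and 57.4, 56.7, 44.2 and 49.1 CPM in WT libraries 1 to 4. Again each KO library was below the WT library of its number, but the genotypes overlapped. KO differed from WT by a log2 fold change of -0.20 ± 0.129, with a 95% interval of -0.49 to 0.094 (edgeR adjusted p = 0.495), and -0.023 ± 0.0950 with the melanoma covariate. An antisense gene at the locus, Gm16754, had 53 to 95 counts against 691 to 1010 for Keap1, and without a stated strand setting their reads cannot be told apart.

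The thioredoxin arm of the pathway recycles oxidised thiols. Txnrd1, the selenoprotein thioredoxin reductase of the cytosol (chromosome 10, 82669785 to 82733546, plus strand), had 247, 289, 323 and 296 CPM in KO and 467, 438, 284 and 276 CPM in WT libraries 1 to 4. As for Nfe2l2, WT 1 and WT 2 were high and the other 6 libraries intermixed. For Txnrd1 the log2 fold change was -0.34 ± 0.203, with a 95% interval of -0.81 to 0.12 (edgeR adjusted p = 0.492), and -0.081 ± 0.191 with the melanoma covariate. It was -0.012 in the fit that left out WT 1, WT 2 and KO 3. Eid3 and Gm38560, which overlap Txnrd1, had at most 63 and 60 counts, against 4300 to 7792 for Txnrd1. Srxn1, sulfiredoxin, which restores overoxidised peroxiredoxins (chromosome 2, 151947436 to 151953296, plus strand), had 25.3, 29.8, 33.3 and 32.95 CPM in KO and 38.7, 27.9, 29.0 and 24.5 CPM in WT. WT 1 was the highest library and WT 4 the lowest. Its log2 fold change was 0.015 ± 0.163, with a 95% interval of -0.36 to 0.39 (edgeR adjusted p = 0.965).

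Prdx1 (chromosome 4, 116542741 to 116558019, plus strand) had 900, 1012, 1316 and 915 CPM in KO and 903, 885, 871 and 920 CPM in WT libraries 1 to 4. The WT libraries lay within a narrow range, with a coefficient of variation of 2.37%, beside 18.7% in KO, where KO 3 was highest. KO 3 also had the most melanoma RNA. For Prdx1 the log2 fold change was 0.21 ± 0.165, with a 95% interval of -0.16 to 0.59 (edgeR adjusted p = 0.529), and 0.074 without KO 3.

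Gpx4, which reduces lipid peroxides in membranes and so restrains ferroptosis (chromosome 10, 79883000 to 79892273, plus strand), had 92.6, 96.0, 118 and 108 CPM in KO and 99.0, 87.7, 103 and 98.7 CPM in WT libraries 1 to 4. KO 3 and KO 4 were the highest and the genotypes overlapped. For Gpx4 the log2 fold change was 0.093 ± 0.108, with a 95% interval of -0.15 to 0.34 (edgeR adjusted p = 0.643), and it was -0.013 with the melanoma covariate. The processed copy Gpx4-ps2 had 153 to 229 counts against 1391 to 2125 for Gpx4, and how reads were shared between them is not known.

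Slc7a11 and Nqo1 had the lowest levels of the 10 genes, and Nqo1 the fewest counts. Slc7a11, the cystine importer that feeds glutathione synthesis (chromosome 3, 49846975 to 50398063, minus strand), had 194, 91, 156 and 164 counts in KO and 54, 77, 175 and 111 counts in WT libraries 1 to 4. In CPM these were 10.8, 4.64, 8.63 and 8.61 in KO and 3.84, 4.33, 10.8 and 7.13 in WT. WT 1 and WT 2 were the lowest and KO 1 and WT 3 the highest. For Slc7a11 the log2 fold change was 0.32 ± 0.383, with a 95% interval of -0.55 to 1.19 (edgeR adjusted p = 0.654), and it was 0.0067 with the melanoma covariate. Nqo1, a quinone reductase often used as a readout of NRF2 activity (chromosome 8, 108114857 to 108129838, minus strand), had 10, 8, 31 and 17 counts in KO and 9, 11, 27 and 15 counts in WT libraries 1 to 4. Libraries of the same number lay close together, and those numbered 3 were highest in both genotypes. For Nqo1 the log2 fold change was -0.13 ± 0.535, with a 95% interval of -1.35 to 1.09 (edgeR adjusted p = 0.906), an interval that holds a change of 2-fold in either direction, and it was -0.85 ± 0.452 with the melanoma covariate (edgeR adjusted p = 0.783).

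**Figure D3:**
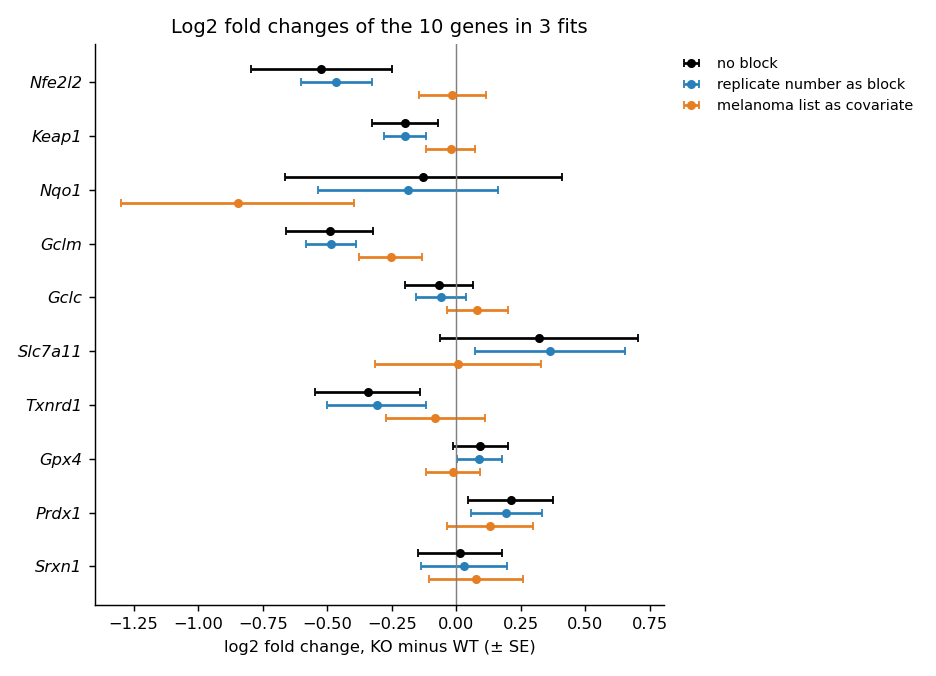
Log2 fold change of each gene, KO minus WT, with bars of 1 SE, in 3 edgeR fits: without a block (black), with the replicate number as a block (blue) and with the mean log2 CPM of the melanoma markers as a covariate (orange). The Nfe2l2 estimate is -0.52 without a block and -0.016 with the covariate, and that of Gclm is -0.49 and -0.26.

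The 10 genes varied across libraries in different ways with melanoma content, taken as the mean log2 CPM of the melanoma markers. It was 4.38 and 4.04 in WT 1 and WT 2, which stood apart, and 6.55 to 8.95 in the other 6 libraries, so each relation is given with and without them, and 10 relations were computed. Keap1 was lower where melanoma RNA was higher over the 8 libraries (Pearson r = -0.940, exact permutation p = 0.000372, adjusted p = 0.00372; Spearman rho = -0.952, exact permutation p = 0.00114, adjusted p = 0.0112). Without WT 1 and WT 2 the relation passed by Pearson r (-0.935, exact permutation p = 0.00972, adjusted p = 0.0486). It did not pass by Spearman rho there (-0.943, exact permutation p = 0.0167, adjusted p = 0.0833). With KO 3 and KO 1 left out as well it was r = -0.564 over 4 libraries. Nfe2l2 was also lower with more melanoma RNA (Pearson r = -0.968, exact permutation p = 0.000744, adjusted p = 0.00372; Spearman rho = -0.929, exact permutation p = 0.00223, adjusted p = 0.0112), and without WT 1 and WT 2 it was r = -0.847 (exact permutation p = 0.0361, adjusted p = 0.0750). The same direction was found for Gclm (Pearson r = -0.865, exact permutation p = 0.00446, adjusted p = 0.0149; Spearman rho = -0.786, exact permutation p = 0.0279, adjusted p = 0.0698), with r = -0.726 without WT 1 and WT 2 (exact permutation p = 0.119, adjusted p = 0.149). For Nfe2l2 and Gclm the relation thus did not pass in the 6 libraries without WT 1 and WT 2. Within the 4 KO libraries alone r was -0.95 for Nfe2l2 and -0.93 for Gclm.

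Gpx4 ran the other way and was higher with more melanoma RNA, by Spearman rho over the 8 libraries (0.857, exact permutation p = 0.0107, adjusted p = 0.0357) but not by Pearson r (0.768, exact permutation p = 0.0257, adjusted p = 0.0642). Without WT 1 and WT 2 it was r = 0.982 (exact permutation p = 0.00139, adjusted p = 0.0139), and r = 0.946 with KO 3 and KO 1 left out as well. Txnrd1 changed sign, with a Pearson r of -0.742 over 8 libraries (Spearman rho -0.214; exact permutation p = 0.0387 and 0.619, adjusted p = 0.0775 and 0.619) and of 0.908 without WT 1 and WT 2 (exact permutation p = 0.0292, adjusted p = 0.0750). Within the genotypes Txnrd1 ran in opposite directions, with r = 0.92 in the 4 KO libraries and -0.98 in the 4 WT libraries. The other 5 genes did not pass after adjustment in either set of libraries. In order of melanoma content (KO 1, KO 2, KO 4, KO 3), each KO library had less Keap1, Nfe2l2 and Gclm and more Gpx4 than the one before it. In WT (WT 2, WT 1, WT 4, WT 3) the high-melanoma WT 4 and WT 3 had less Keap1, Nfe2l2 and Gclm than WT 1 and WT 2, while Gpx4 was similar in WT 1 and WT 4. Every value is scaled to the counts of its own library. Over the 8 libraries, the mean log2 CPM of the Kupffer cell markers had a Pearson r of 0.942 with Keap1 and 0.856 with Nfe2l2. It was 0.909 with Gclm and -0.86 with Gpx4. Whether these genes follow the melanoma or the Kupffer cell RNA level was not tested.

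**Figure D4:**
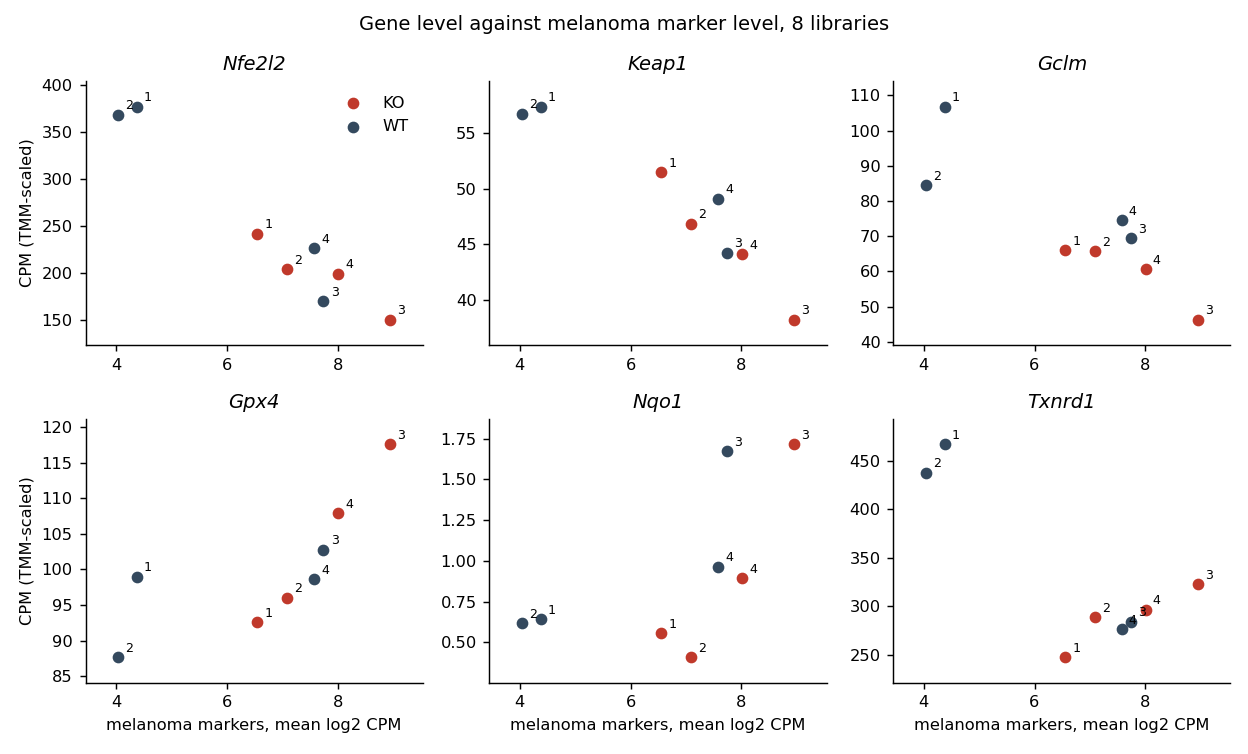
CPM of 6 genes against the mean log2 CPM of the 10 melanoma markers, with KO libraries in red, WT libraries in dark blue and the library number beside each point. Nfe2l2, Keap1 and Gclm are highest in WT 1 and WT 2 at the left and lowest in KO 3 at the right, Gpx4 and Nqo1 are highest in KO 3, and Txnrd1 is high in WT 1 and WT 2 and otherwise lowest in KO 1.

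The partners and regulators of NRF2 had no common direction. Calls with the block in this and the lists that follow stand beside 14% of all tested genes called so, 8.98% higher and 5.01% lower in KO. Counts below an unadjusted p of 0.05 stand beside 8.78% of tested genes, 4.23% higher and 4.56% lower in KO. Of all 15870 tested genes, 7876 had higher and 7994 lower values in KO, and the genotypes did not overlap in 5.56%. Beside these shares none of the counts is read as particular to a list. Of 13 genes, 8 had higher and 5 lower values in KO (median log2 fold change 0.024), and 0 passed in edgeR, with 1 below an unadjusted p of 0.05; DESeq2 called 0. The median was 0.039 with the melanoma covariate. With the block 1 fell and 0 rose. That gene was Mafk, a small MAF protein that binds DNA together with NRF2. Mafk had 36.8, 35.6, 33.6 and 34.8 CPM in KO 1 to 4 and 53.2, 48.5, 45.3 and 39.1 CPM in WT 1 to 4. All KO libraries lay below all WT libraries, as in 2.85% of tested genes. The log2 fold change was -0.40 ± 0.111, with a 95% interval of -0.66 to -0.15 (edgeR adjusted p = 0.492), and -0.39 ± 0.0968 with the block (edgeR adjusted p = 0.0384). The blocked call held without number 4 (edgeR adjusted p = 0.0317) and was lost without number 1, 2 or 3 (edgeR adjusted p = 0.108, 0.157 and 0.105). With the melanoma covariate the value was -0.28 ± 0.101 and did not pass (edgeR adjusted p = 0.560). In the fit that left out WT 1, WT 2 and KO 3 it was -0.24 (edgeR adjusted p = 0.937). The most abundant genes of this list on the FPKM scale were Sqstm1, the autophagy adaptor p62 that competes for KEAP1, with 495 ± 123 CPM in KO against 401 ± 53.9 CPM in WT, and Cul3, the ubiquitin ligase scaffold that KEAP1 recruits, with 147 ± 16.4 CPM in KO and 134 ± 4.41 CPM in WT.

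Other NRF2 targets had mostly lower values in KO. Of 22 genes, 17 had lower and 5 higher values, and their median log2 fold change was -0.20, and 0 passed in edgeR, with 1 below an unadjusted p of 0.05; DESeq2 called 0. The median was 0.055 with the melanoma covariate and 0.11 in the fit that left out WT 1, WT 2 and KO 3. With the block 2 rose and 1 fell. The antioxidant Prdx6 (72.5 ± 26.8 CPM in KO, 46.5 ± 19.3 CPM in WT) and the NADPH-producing malic enzyme Me1 (33.1 ± 22.2 CPM in KO, 16.3 ± 14.1 CPM in WT) rose with the block (edgeR adjusted p = 0.0254 and 0.0367). Blvrb, biliverdin reductase B, fell with it (121 ± 49.4 CPM in KO and 173 ± 42.2 CPM in WT; edgeR adjusted p = 0.0410). With the melanoma covariate the log2 fold changes of the 3 were 0.082, -0.052 and -0.099. The most abundant genes on the FPKM scale were Ftl1, a ferritin chain that stores iron, and Hmox1, the heme-degrading oxygenase. They had 3466 ± 292 and 893 ± 367 CPM in KO, and 3751 ± 613 and 1205 ± 396 CPM in WT. Ferritin genes have near-identical copies, which makes the level of Ftl1 uncertain.

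Further genes that restrain ferroptosis were split evenly, with 9 of 18 higher and 9 lower in KO and a median log2 fold change of -0.027. In edgeR 0 passed and 0 were below an unadjusted p of 0.05, and DESeq2 called 0. The median was -0.011 with the melanoma covariate. With the block 2 rose and 1 fell. Acsl3, which activates monounsaturated fatty acids (79.9 ± 48.2 CPM in KO, 41.6 ± 25.6 CPM in WT), and Mboat2, a phospholipid acyltransferase (14.9 ± 8.86 CPM in KO, 5.78 ± 5.73 CPM in WT), rose with the block (edgeR adjusted p = 0.0310 and 0.0298). Mboat2 had 1.14 and 0.955 CPM in WT 1 and WT 2 and 27.2 CPM in KO 3, the libraries with the least and the most melanoma RNA. With the melanoma covariate the log2 fold changes were 0.058 for Acsl3 and 0.41 for Mboat2. Cbs, of the transsulfuration path to cysteine, fell with the block (1.53 ± 0.804 CPM in KO and 4.20 ± 3.44 CPM in WT; edgeR adjusted p = 0.0322). For Cbs the log2 fold change was -1.45 without a block and -2.25 ± 0.433 with the melanoma covariate, so it grew there. Neither value passed (edgeR adjusted p = 0.492 and 0.245). WT 3, the library with the most hepatocyte RNA, was highest at 9.04 CPM, and the part of hepatocyte RNA in the value of Cbs was not tested. The most abundant genes on the FPKM scale were Slc3a2, the partner chain of the cystine importer, and Scd1, a fatty acid desaturase. They had 267 ± 56.9 and 145 ± 25.7 CPM in KO, and 312 ± 78.5 and 187 ± 48.1 CPM in WT.

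Of the 18 genes that favour ferroptosis, 17 were tested, since Alox12 was too low, and 10 had higher and 7 lower values in KO (median log2 fold change 0.035). In edgeR 0 passed, with 1 higher and 2 lower below an unadjusted p of 0.05, and DESeq2 called 0. With the melanoma covariate the median was -0.158, further from 0 than without it. With the block 1 rose and 1 fell. Tfrc, the transferrin receptor that imports iron, rose with it (153 to 281 CPM in KO and 87.7 to 156 CPM in WT; edgeR adjusted p = 0.0315). Acsl4, which activates polyunsaturated fatty acids, fell with it (edgeR adjusted p = 0.0290). Acsl4 had 74.7 ± 20.4 CPM in KO and 112 ± 29.7 CPM in WT. KO 3 had the most Tfrc and the least Acsl4, at 281 and 46.1 CPM. With the melanoma covariate the log2 fold changes were 0.24 and -0.19. The most abundant genes on the FPKM scale were Sat1, a polyamine acetyltransferase (1260 ± 420 CPM in KO, 1569 ± 225 CPM in WT), and Alox5ap, the lipoxygenase-activating protein. Alox5ap had 61.1 to 119 CPM in KO and 129 to 152 CPM in WT (log2 fold change -0.49 ± 0.198, edgeR adjusted p = 0.492). The genotypes did not overlap, as in 2.85% of tested genes that were lower in KO.

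Other peroxide and thiol enzymes had mostly lower values in KO, with 16 of 22 lower and a median log2 fold change of -0.16. In edgeR 0 passed, with 1 below an unadjusted p of 0.05, and DESeq2 called 0. The median was -0.026 with the melanoma covariate. With the block 4 of 22 passed, and 3 fell, namely the peroxiredoxin Prdx5 (257 ± 101 CPM in KO and 403 ± 100 CPM in WT; edgeR adjusted p = 0.0257), the methionine sulfoxide reductase Msrb1 (95.4 ± 24.4 CPM in KO and 125 ± 21.3 CPM in WT; edgeR adjusted p = 0.0357) and the glutaredoxin Glrx (25.7 ± 5.22 CPM in KO and 33.9 ± 6.70 CPM in WT; edgeR adjusted p = 0.0441). Gpx8, a peroxidase of the endoplasmic reticulum, rose with the block (11.3 ± 7.02 CPM in KO and 5.45 ± 4.34 CPM in WT; edgeR adjusted p = 0.0322). KO 3 was the lowest library for Prdx5, Msrb1 and Glrx and the highest for Gpx8, and with the melanoma covariate the log2 fold changes were -0.26, -0.12 and -0.11 for the first 3 genes and 0.082 for Gpx8. The most abundant genes on the FPKM scale were Gpx1, a cytosolic glutathione peroxidase, and Txnip, which binds and restrains thioredoxin. They had 357 ± 95.7 and 415 ± 91.2 CPM in KO, and 417 ± 21.2 and 566 ± 71.3 CPM in WT.

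**Figure D5:**
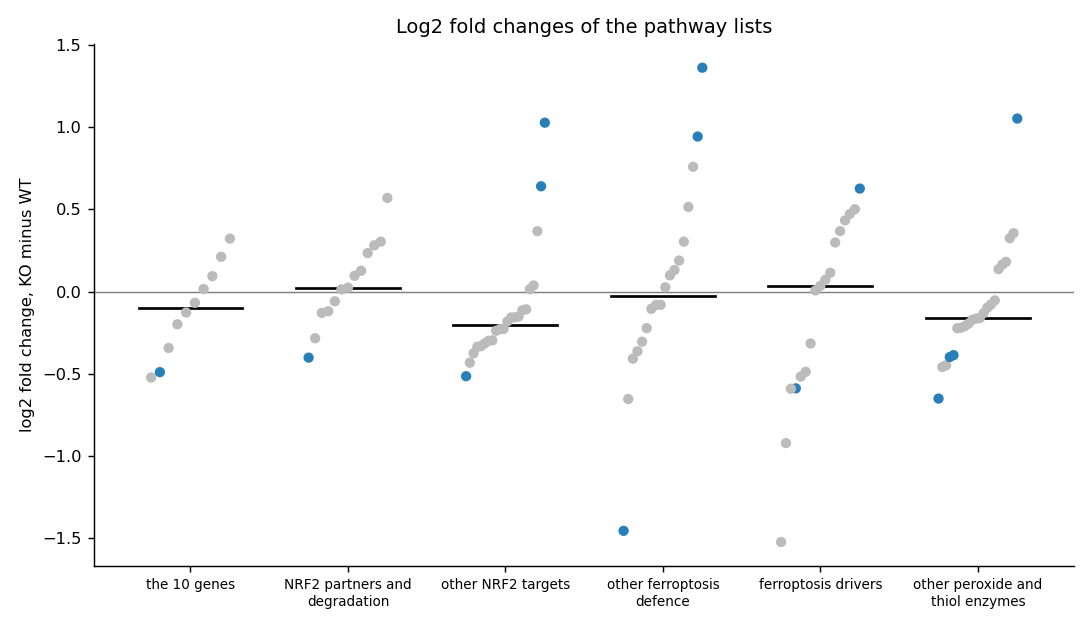
Log2 fold change, KO minus WT, of every tested gene in the 10 genes and 5 further lists, sorted within each list, with the median as a bar and genes that pass with the replicate block in blue. No point passes without the block, and the medians run from -0.20 in other NRF2 targets to 0.035 in ferroptosis drivers.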

How the data were processed

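RNA of 8 libraries of sorted Kupffer cells was measured, 4 KO and 4 WT. HTSeq 0.6.1 and mm10 are named per the submitters' processing notes; neither the aligner nor the strand setting is stated there, nor the gene annotation. The deposited table holds raw counts per gene and the authors' FPKM values, per the file headers. The FPKM values equal count over exonic size and column total within 0.015. The deposited table also holds exonic sizes and gene positions as other values, printed as deposited. These gene positions do not match the coordinates of the GRCm38.p6 promoter windows, although mm10 is the same assembly, so their build is not known. Column letter K was read as KO and C as WT.

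Genes were kept by filterByExpr (15870 of 56691) and TMM scaling was used. The quasi-likelihood F test of edgeR 4.0.16, run in R 4.3.3, set KO against WT, with p-values adjusted by Benjamini-Hochberg over every gene tested and a threshold of 0.05. Alternatives used DESeq2 1.42.0, limma 3.58.1 on log2(FPKM + 1), other scalings, no filter, a melanoma covariate, a replicate block and left-out libraries. The scripts were tested on simulated data. The biological coefficient of variation was 33.3%. The floor of 3 counts was worth 0.154 to 0.197 CPM, which covers counting error only.

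The genes and lists were chosen with earlier results of these data known. Named genes were the 10 members, Vsig4, and per list those passing in either fit (at most 4 per direction) and the 2 highest in FPKM, plus the 2 genes most correlated with each member.

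Libraries that share a number deviated together from their genotype means (correlation 0.561 for number 1, 0.544 for 2, 0.660 for 3 and 0.290 for 4), so each was above 0.1 and the numbers were taken as pairs. The pairing comes from these values, not the labels, and is not specific to the number: KO 1 correlated at 0.669 with WT 2, KO 4 at 0.309 with WT 3 and KO 3 at 0.557 with WT 4. In each genotype, the libraries numbered 3 and 4 held the most melanoma RNA. Libraries of a genotype differed by at least 10.9 chi-square units per degree of freedom.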

Additional observations from a re-analysis of the deposited data

How the results depend on the processing

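Of 160 recomputed log2 fold changes of the 10 genes, 141 kept their direction and their side of the threshold and 18 changed sign without passing in either fit. With the replicate block, 2220 genes passed in place of 1, among them 1 of the 10 genes (Gclm, log2 fold change -0.48) and 13 in the 5 further lists; the block changed no other call of the 10 genes. Leaving out same-numbered libraries under the block gave 207 genes without number 1, 2 without number 2, 1 without number 3 and 2229 without number 4. The 10 genes gave 0, 0, 0 and 1 calls there, and the further lists 1, 0, 0 and 18. DESeq2 called 66 genes and the fit with no filter 2. Leaving out single libraries gave 1 to 2 genes and 0 of the 10. Sign changes were seen for Gclc, at 0.023 with library size alone, 0.028 with limma, 0.081 with the melanoma covariate and 0.13 without WT 1, WT 2 and KO 3, and for Gpx4, at -0.013 with the covariate and -0.026 without those libraries. Without them Nfe2l2 was 0.12, Keap1 0.027 and Slc7a11 -0.16, while Gclm was -0.16, Txnrd1 -0.012 and Nqo1 -1.08 with their sign kept. Leaving out single libraries moved Nqo1 between -0.64 and 0.25, Srxn1 between -0.076 and 0.16 and Gclc between -0.13 and 0.054. The cause was not tested. The median log2 fold change of all genes was 0.085 with library size alone, the setting that moved it most, beside -0.0028. Depth limits Nqo1 in particular, which had 8 to 31 counts.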

Other observations

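The genes whose log2 CPM over the 8 libraries was most like that of each of the 10 genes were looked up among 12568 others with a mean of at least 1 CPM and a named symbol. For Gclm these were Ccni (Pearson r = 0.992) and Tnfrsf23 (0.991), a decoy receptor of the TNF family with 4.35 CPM in KO and 8.01 CPM in WT on average. For Nfe2l2 they were Galnt2 (0.990) and Crim1 (0.985), and for Keap1 Mcts1 (0.996) and Gpr160 (0.995). Gpx4 was closest to Lima1 (0.985) and Mvb12b (0.984), Prdx1 to Spg20 (0.989) and Fip1l1 (0.986), and Txnrd1 to Vti1b (0.972) and Gde1 (0.947). Gclc was closest to Stard8 (0.971) and Pptc7 (0.960), and Srxn1 to Lrrc57 (0.938) and Tmem248 (0.910). Slc7a11 was closest to Prob1 (0.958) and Fgfr3 (0.929). Nqo1 was closest to Usp30 (0.972) and Prox1 (0.970), a transcription factor of hepatocytes and lymphatic endothelium. All 8 points share their scaling and the gradient of melanoma content, and the best of many genes is chosen in each case, so these values are a description.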
